A study of Mus musculus with 30 samples.

Results

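The 8 apoptosis genes studied in the mouse olfactory epithelium after removal of the olfactory bulbs were the caspases Casp8 and Casp9 and the Bcl2 family members Bax, Bad, Bid, Bcl2, Bcl2l1 and Mcl1. The rule used their symbols and no measured value, and every probe set annotated to 1 of them and to no other gene was taken. That gave 14 probe sets for 7 of the 8 genes, out of 8252 genes with such a probe set in the series. No probe set was annotated to Bax alone in the table used, and Bax was not analysed here. Bid rose at 16 and 48 h in both genotypes, and it was the only one of the 10 tested probe sets that did.

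The arrays measured total RNA of microdissected olfactory epithelium from mice 6 weeks of age, labelled either wild type or mutant for SR-A. SR-A is the class A scavenger receptor of macrophages, encoded by Msr1. Bilateral olfactory bulbectomy, which removes the brain targets of the olfactory sensory neuron axons, preceded sampling at 2, 8, 16 and 48 h, and a further group of each genotype stood at 0 h. The 10 groups of genotype and time held 3 arrays each, 30 in all. No strain, SR-A allele or state of surgery at 0 h is stated in the labels, nor that arrays and mice match one to one. The spread between arrays that the p-values rest on may thus be technical. The labels name no batch, so genotype and any batch that ran with it cannot be told apart.

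Apoptosis is run by caspases, proteases that are made as inactive precursors. Casp8 is the initiator caspase of the death receptor route, and Casp9 is the initiator that Apaf1 and cytochrome c activate after the mitochondrial outer membrane is breached. Bax and Bak1 make that breach, Bcl2, Bcl2l1 (Bcl-xL) and Mcl1 oppose it, and BH3-only proteins such as Bid, Bad and Bcl2l11 (Bim) tip the balance. Bid links the routes, since Casp8 cleaves it into its active form. Mature olfactory sensory neurons are known to die by apoptosis after bulbectomy. Cleavage, phosphorylation and protein location, by which many of these proteins are controlled, are not seen by RNA arrays.

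The labelled tissue carried its marker: Omp, the olfactory marker protein of mature sensory neurons, gave signals of 27105.5 to 31604.6 in the wild-type-labelled 0 h arrays. Msr1, the gene of SR-A, had more signal in mutant-labelled than in wild-type-labelled arrays, though its probe sets were too dim to be tested. Its brighter probe set ranged from 32.6 to 295.1 in the 15 wild-type-labelled arrays and from 297.5 to 587.4 in the 15 mutant-labelled ones. What the mutation alters and whether the probes lie there is not known here, so the groups are called wild-type-labelled and mutant-labelled. The 3 mutant-labelled arrays at 2 h stood apart. Their log2 ratios of the 3′ to the 5′ control probe sets for Gapdh, a sign of RNA quality, were 5.59, 0.15 and 1.27, against -0.31 to -0.13 in the 27 others. They were left out of the main fit and are described on their own.

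All values are MAS5 signals, linear brightness units that the authors had scaled alike over the arrays, and signals of different probe sets are not read as relative expression. The pooled median of all signals was 572. The test took probe sets with 3 or more arrays above it, and signals under a floor of 113.7, the pooled 25th percentile, were set to that floor. Of the 14 probe sets 10 were tested and 4 were not. Differences are on the log2 scale ± SE from 3 arrays per group, and p-values come from limma with Benjamini-Hochberg adjustment over the 6968 tested probe sets.

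Of the 14 probe sets, 5 were near background, meaning that they were not tested or had a median signal at or below the pooled median. The first was the single probe set of Casp8, which ranged from 208.1 to 416.0 and never reached the pooled median. A dim Casp9 set had a median of 185.1. Its 3 lowest arrays lay at or below the floor and were the mutant-labelled 2 h arrays. A dim Bcl2 set was at or below the floor in 22 of the 30 arrays and a dim Bcl2l1 set in all 30, with medians of 98.7 and 25.3. For comparison, the 15 bacterial control probe sets had a median of 18.25, a 95th percentile of 97.21 and a maximum of 151.9. Every Casp8 array and every Bid array (lowest 202.4) lay above that maximum. For these genes near background means only dim beside all signals. The only Bid set, the fifth, had a median of 321.2 and exceeded the pooled median in 6 arrays, all at 16 or 48 h: 3 wild-type-labelled 48 h arrays, 2 mutant-labelled 16 h arrays and 1 mutant-labelled 48 h array. Bid thus entered the test through the groups in which it was high, and its adjusted p is also given with no filter.

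The other 9 tested sets had medians above the pooled median. Median signals were 4081.2 for the tested Bcl2l1 set and 4235.5 for Mcl1, and both exceeded the pooled median in all 30 arrays. Casp9 had 3 tested sets, here called A, B and C, with medians of 657.7, 608.7 and 800.6. Bad sets A and B had medians of 749.3 and 1069, and Bcl2 sets A and B had medians of 620 and 1007.3. The plots carry the manufacturer's identifier of each set.

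**Figure D1:**
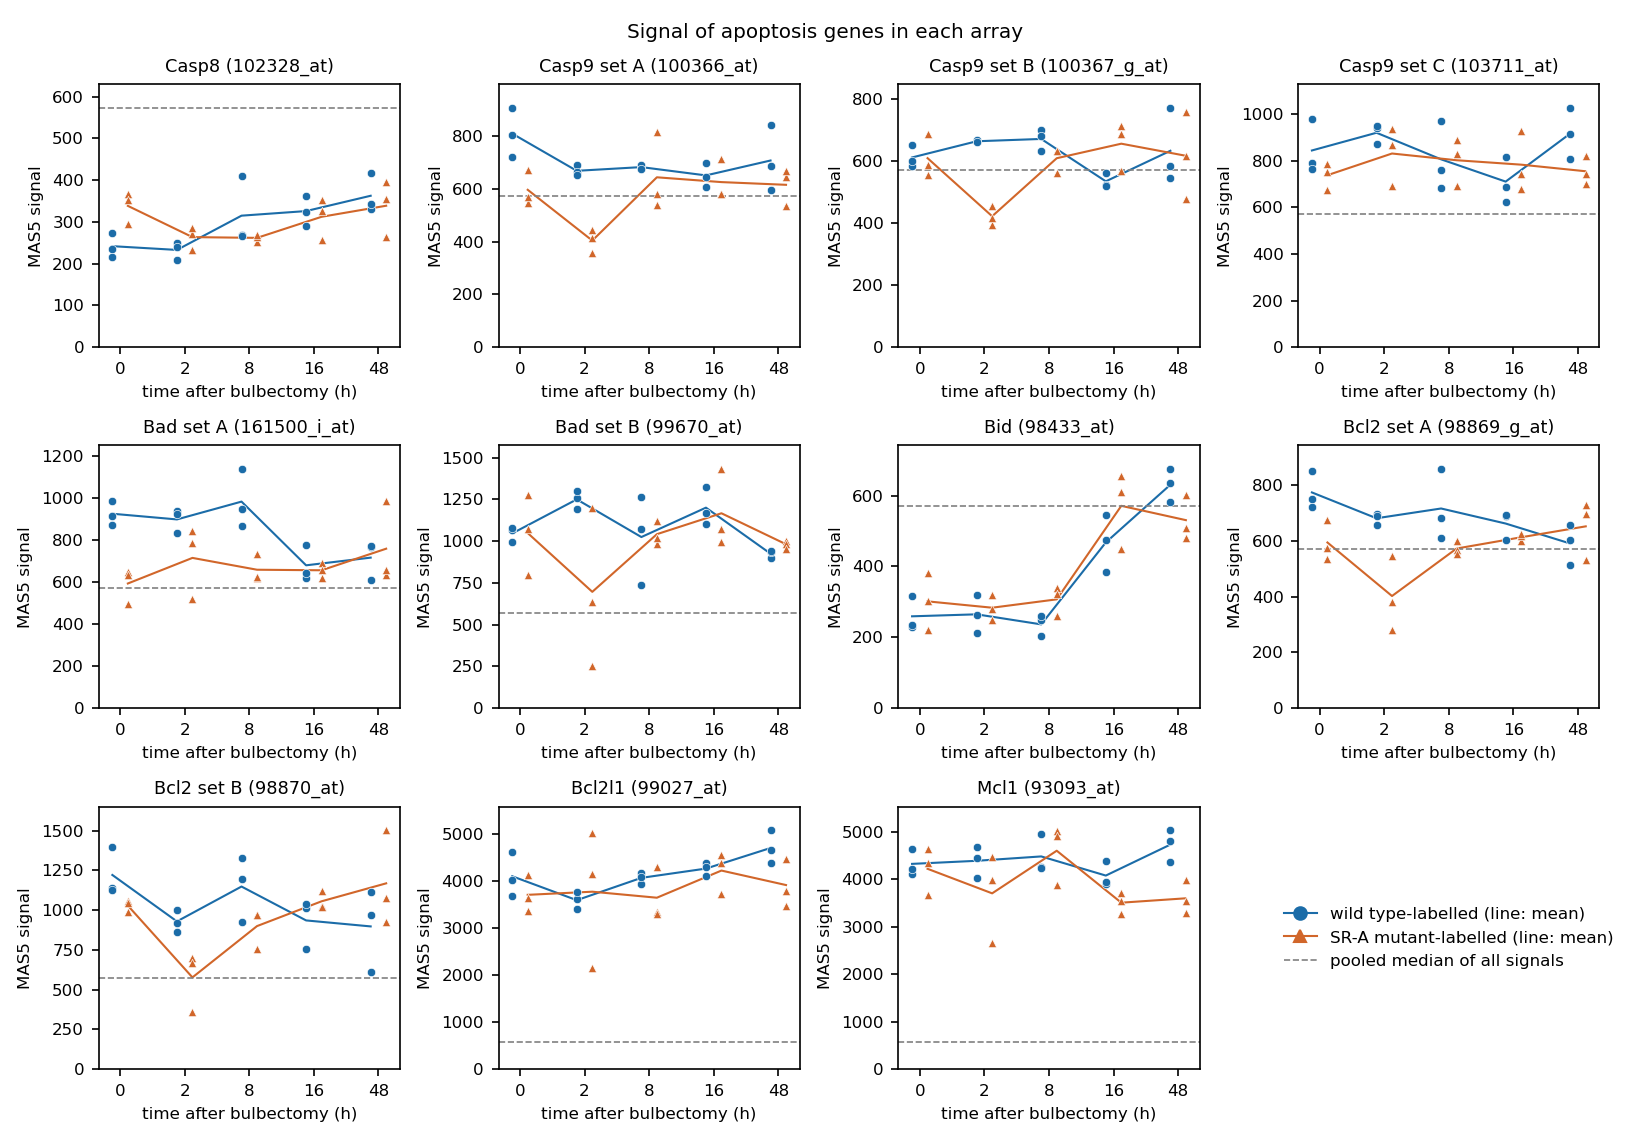
MAS5 signal (linear, from 0) of the 10 tested probe sets and of Casp8 in each array against time after bulbectomy (h), with points for single arrays, lines for group means, and a dashed line at the pooled median of 572. Bid climbs from means of 259.2 and 301.4 at 0 h to 630.9 and 530.8 at 48 h. The mutant-labelled 2 h arrays dip in the Bcl2 sets, in 2 Casp9 sets and, on average, in Bad set B. Casp8 lies below its mutant-labelled 0 h arrays at both 2 and 8 h.

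Few of the 10 tested probe sets changed from 0 h. In the wild-type-labelled arrays 0 were called at 2 h and 0 at 8 h, where 1.89% and 0.244% of all tested probe sets were called in limma, and 0 of the 10 had an unadjusted p under 0.05 at either time, against 1377 and 670 of all. A single set was called at 16 h, where 9.59% of all were, and 2 at 48 h, where 18.8% were. In the mutant-labelled arrays 0 were called at 8 h (2.54% of all in limma, with 1164 of all and 0 of the 10 at an unadjusted p under 0.05), 1 at 16 h (5.18% of all) and 1 at 48 h (13.2% of all). These shares are near the background, so the count as such is no result about the apoptosis genes. The median change of the 10 sets at 48 h was -0.07 in the wild-type-labelled and 0.06 in the mutant-labelled arrays, beside -0.02 and 0.02 over all tested probe sets.

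Casp8, the death receptor initiator, was too dim for the main test, and its values come from a fit with no filter. Its wild-type-labelled signals were 234.9, 274.2 and 216.3 at 0 h and 416.0, 329.9 and 341.8 at 48 h. Every 48 h array lay above every 0 h array, a change of 0.58 ± 0.17 with an adjusted p of 0.0362. The 16 h arrays, at 362.7, 323.9 and 291.2, also lay above the 0 h arrays, with a change of 0.43 ± 0.17 and an adjusted p of 0.168. The mutant-labelled signals started higher, at 367.0, 295.1 and 353.0, and stood at 264.3, 355.4 and 396.4 at 48 h, so that the groups overlapped and the change was -0.01 ± 0.17. In between they were lower, at 271.9, 232.1 and 286.4 at 2 h and 252.6, 264.4 and 268.2 at 8 h. All of these lay below the mutant-labelled 0 h arrays. The genotypes did not overlap at 0 h, with a difference of 0.49 ± 0.17 and an adjusted p of 0.0725. The joint test of a genotype difference in the change gave an adjusted p of 0.237. The differences were -0.72, -0.55 and -0.60 at 8, 16 and 48 h. Their 95% intervals were -1.23 to -0.21, -1.07 to -0.04 and -1.11 to -0.08.

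Casp9, the mitochondrial route initiator, had 3 tested probe sets, and none of them passed the test at any time against 0 h in the 27 arrays of the main fit. Set A gave 905.6, 721.2 and 802.9 at 0 h and 841.3, 686.8 and 595.4 at 48 h in arrays labelled wild type. The mutant-labelled arrays gave 548.2, 672.8 and 569.2 at 0 h and 535.2, 643.7 and 667.8 at 48 h. The 0 h arrays of the mutant label all lay under those of the wild type label, while at 48 h the genotypes overlapped. In arrays labelled wild type, set A lay under all its 0 h arrays at 2, 8 and 16 h, reaching at most 690.7, 692.5 and 698.4. Set B lay above its 0 h arrays at 2 h (660.4 or more against at most 650.8) and under them at 16 h (at most 560.1 against 583.3 or more). Sets A and B thus disagreed at 2 h. The mutant-labelled arrays of 8 and 16 h overlapped 0 h in all 3 sets. The 48 h changes of the 3 sets lay between -0.20 and 0.12 in the wild-type-labelled and between -0.00084 and 0.04 in the mutant-labelled arrays, with 95% intervals reaching at most -0.50 to 0.42 in the former and -0.29 to 0.34 in the latter.

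Bid, the BH3-only protein that Casp8 cleaves, was low and flat up to 8 h. In the wild-type-labelled arrays its signals were 315.5, 228.6 and 233.5 at 0 h, 211.3, 320.0 and 263.0 at 2 h, and 247.7, 259.1 and 202.4 at 8 h. They were 544.8, 474.6 and 384.1 at 16 h and 582.7, 674.2 and 635.9 at 48 h. All arrays of 16 and 48 h lay above all of 0, 2 and 8 h, and all of 48 h above all of 16 h. The rise from 0 h was 0.85 ± 0.20 at 16 h (adjusted p = 0.0106, 0.0253 with no filter) and 1.30 ± 0.20 at 48 h (adjusted p = 1.04e-04, 5.47e-04 with no filter). At 48 h this was 2.46-fold, with a 95% interval of 1.85 to 3.26.

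The mutant-labelled arrays gave Bid signals of 302.1, 220.0 and 382.2 at 0 h and 259.2, 339.8 and 322.2 at 8 h. At 16 h they were 609.7, 655.3 and 448.6, and at 48 h 602.3, 510.0 and 480.0. Again all 16 and 48 h arrays lay above all 0 and 8 h arrays, but here 16 and 48 h overlapped. Bid rose by 0.94 ± 0.20 at 16 h (adjusted p = 0.00826, 0.0219 with no filter) and by 0.85 ± 0.20 at 48 h (adjusted p = 0.0074, 0.0175 with no filter). The comparisons within a genotype share their 0 h arrays, so the 16 h and 48 h rises are not independent of each other.

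Ordered by mean signal, the Bid groups ran from wild type at 8 h (236.4 ± 29.99, SD, n = 3) through 0 h (259.2 ± 48.8), 2 h (264.8 ± 54.4), mutant at 2 h (283.5 ± 35.6), 0 h (301.4 ± 81.1) and 8 h (307.1 ± 42.4). A gap followed, up to wild type at 16 h (467.8 ± 80.6), mutant at 48 h (530.8 ± 63.7), mutant at 16 h (571.2 ± 108.6) and wild type at 48 h (630.9 ± 46.0). Neighbours in that order differed by less than the larger of their SDs except across the gap. Genotype differences in Bid did not pass the test at 0, 8, 16 or 48 h, and the change at 48 h was -0.45 ± 0.28 in the mutant-labelled relative to the wild-type-labelled arrays (95% interval -1.03 to 0.13). The wild-type 48 h rise passed in every alternative and with any single array left out. The wild-type 16 h rise was lost without replicate 1 at 16 h (adjusted p = 0.0598), and both mutant-labelled rises were lost without replicate 2 at 0 h or when only the groups compared were fitted.

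Cell type markers moved over the same hours, and their part in the Bid rise was not tested. In this bulk tissue a change in the number of cells of a type and a change in RNA per cell cannot be told apart. The summed signal of 3 of 8 listed mature sensory neuron genes (Omp, Adcy3 and Cnga2) went from 44207.9 to 52586.9 at 0 h down to 24327.2 to 29690.9 at 48 h in arrays labelled wild type, and from 46710.1 to 52437.9 down to 26836.8 to 36943.7 in the mutant-labelled ones. All 3 genes fell in both. At 16 h, when Bid was already up, the sum was 37039.7 to 42347.3 in the former and 53769.3 to 57166.4 in the latter. Of 7 tested macrophage genes 4 rose at 48 h in each genotype. Their list's sum went from 11166.8 to 13810.7 at 0 h to 19662.1 to 25383.7 at 48 h in arrays labelled wild type, and from 14319.1 to 19352.9 to 20325.7 to 24908.3 in the mutant-labelled ones. At 16 h that sum was 17412.3 to 23190.9 in the former, above 0 h, and 15645.7 to 17894.2 in the latter, which overlapped 0 h. Of the 7 tested macrophage genes, 1 was called at 16 h in arrays labelled wild type and 0 in the mutant-labelled ones. Mean Lyz2 signal in arrays labelled wild type went from 3709.7 at 0 h to 9382.8 at 16 h, while that of Cd68 stood at 1291.4 and 1281.1. Of 3 tested supporting cell genes, 1 rose at 16 h and 1 at 48 h in each genotype: Krt18 at both times in arrays labelled wild type, and Krt8 and then Cyp1a2 in the mutant-labelled ones. The sum of these 3 overlapped 0 h at 16 and 48 h in arrays labelled wild type. For the mutant label it went from 44763.1 to 48180.9 at 0 h to 47560.6 to 52946.5 at 16 h and 55811.8 to 58730.9 at 48 h. Of 6 tested neutrophil genes 2 rose and 2 fell by 48 h in arrays labelled wild type, and 0 were called in the mutant-labelled ones. Of the 10 listed neutrophil genes Ltf was the brightest, with a median signal of 30654.3 against 4068.3 for S100a8, the next brightest. The sum of the 10 thus rests on Ltf more than on any other of them. This sum went from 40144.1 to 46941.8 at 0 h to 53774.3 to 74652.9 at 48 h in arrays labelled wild type. For the mutant label it was 39294.8 to 42639.7 at 0 h and 36121.0 to 62032.3 at 48 h, which overlapped. At 16 h the neutrophil sum overlapped 0 h in each genotype. Cxcr2 was at or below the floor on average in every group.

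Bad, a BH3-only protein that binds Bcl2 and Bcl-xL, had a pair of tested probe sets that disagreed in part. For set A the wild-type-labelled signals were 987.6, 873.6 and 913.4 at 0 h, 1136.0, 947.4 and 864.4 at 8 h, 618.5, 643.8 and 775.8 at 16 h, and 766.4, 611.2 and 770.5 at 48 h. The 16 and 48 h arrays lay under all 0 h arrays, yet the changes of -0.45 ± 0.15 and -0.38 ± 0.15 missed the threshold (adjusted p = 0.0612 and 0.0848). The mutant-labelled signals were 647.2, 635.6 and 495.9 at 0 h, 732.3, 618.3 and 624.5 at 8 h, 690.6, 657.8 and 618.9 at 16 h, and 633.8, 655.0 and 986.8 at 48 h. These were below every wild-type-labelled array at 0 and 8 h and overlapped them at 16 and 48 h. Set B, in contrast, gave 1067.1, 994.7 and 1077.3 against 799.5, 1070.9 and 1275.5 in the 0 h arrays, where the genotypes overlapped. In the wild-type-labelled arrays it ranged from 1104.5 to 1326.6 at 16 h, above all 0 h arrays and opposite to set A. At 48 h it ranged from 900.2 to 940.1, below all 0 h arrays as in set A. Neither change was called. The mutant-labelled set B arrays of 16 and 48 h overlapped those of 0 h.

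Bcl2, the founding anti-apoptotic member, also had a pair of tested sets, which moved alike. In arrays labelled wild type both already lay below all 0 h arrays at 2 h, reaching at most 696.7 (set A) and 1002.9 (set B). The same held at 16 h, at most 693.8 and 1040.6, while both overlapped 0 h at 8 h. None of these earlier changes was called. In the mutant-labelled arrays of 8 and 16 h only set B at 8 h, at most 972.6, lay clear of its 0 h arrays, below them. Set A read 851.3, 750.3 and 720.1 at 0 h and 656.4, 602.6 and 512.8 at 48 h in arrays labelled wild type, with no overlap. It fell by 0.39 on the log2 scale, with an SE of 0.13 and an adjusted p of 0.0369. Set B read 1140.7, 1396.4 and 1128.4 at 0 h and 1115.4, 968.2 and 610.4 at 48 h, a change of -0.48 ± 0.19 that missed the threshold (adjusted p = 0.0847). In the mutant-labelled arrays the corresponding changes were 0.13 ± 0.13 and 0.15 ± 0.19, and both groups overlapped. The fall of set A was lost in 4 of 7 alternatives, with an adjusted p of 0.0541 when no filter was used, and without any 1 of 4 arrays, replicates 1 and 2 at 0 h and replicates 2 and 3 at 48 h.

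The tested sets of Bcl2l1 and Mcl1, the other anti-apoptotic members, did not pass the test at any time against 0 h. Bcl2l1 stood at 4014.5, 3666.7 and 4601.5 at 0 h and 4373.4, 5068.7 and 4641.5 at 48 h in arrays labelled wild type, a change of 0.20 with a 95% interval of -0.04 to 0.44. In the mutant-labelled arrays it stood at 3623.2, 4119.4 and 3357.5 and at 4463.8, 3467.8 and 3791.2, a change of 0.08 with an interval of -0.17 to 0.32. The 0 and 48 h arrays overlapped in both. Mcl1, a short-lived protein, gave 4648.3, 4110.2 and 4225.4 at 0 h and 5034.7, 4367.7 and 4801.9 at 48 h in arrays labelled wild type, a change of 0.13 with an interval of -0.10 to 0.36. The mutant-labelled Mcl1 signals were 4356.1, 3674.8 and 4640.7 at 0 h, 3274.4, 3707.3 and 3547.4 at 16 h, and 3984.6, 3283.1 and 3538.5 at 48 h. Its changes were -0.26 ± 0.11 at 16 h and -0.23 ± 0.11 at 48 h (adjusted p = 0.182 and 0.186), and the arrays overlapped those of 0 h at both times.

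**Figure D2:**
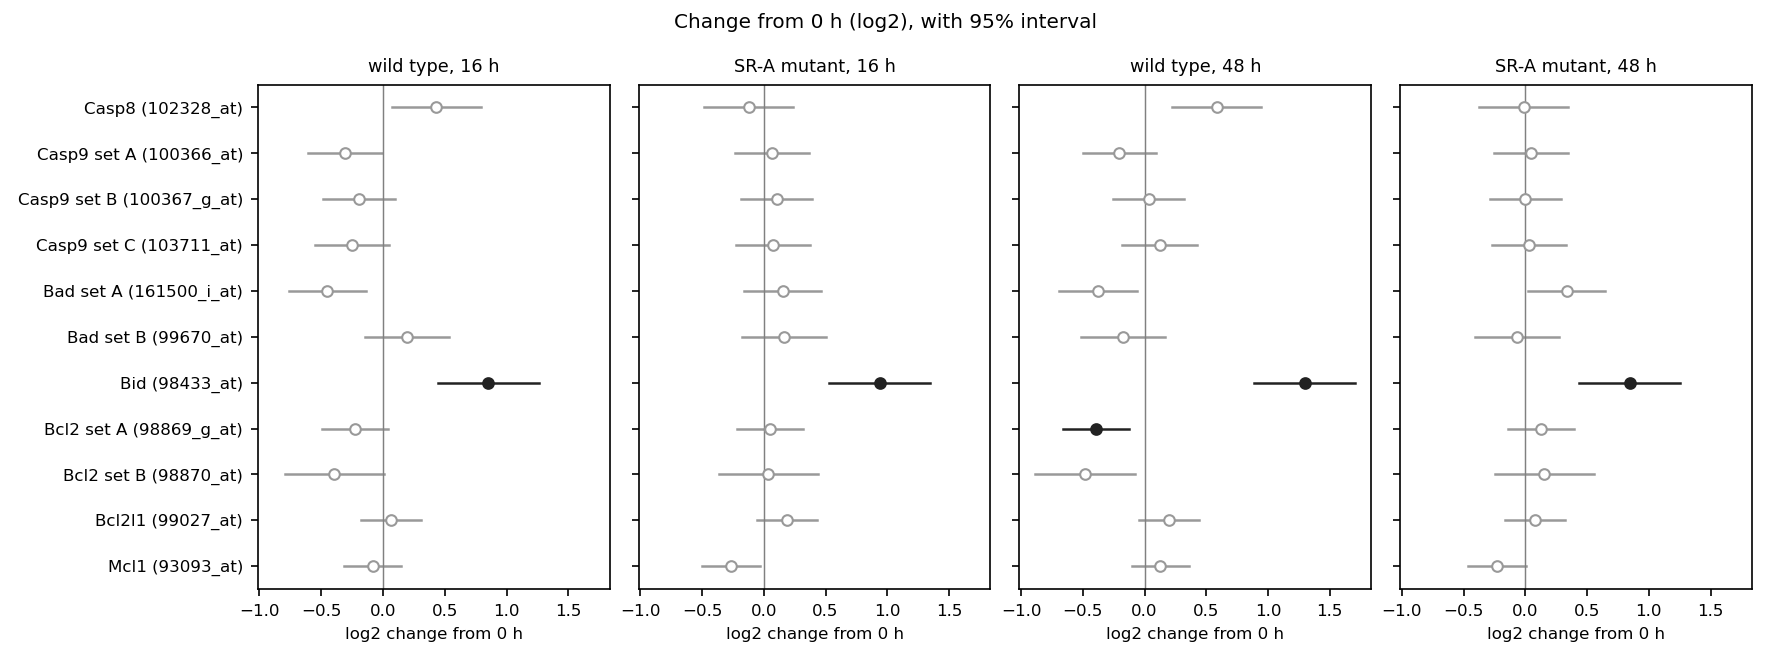
Log2 change from 0 h (x axis) for the 10 tested probe sets and Casp8, with 95% intervals, at 16 and 48 h in each genotype; filled points passed an adjusted p of 0.05 in the main fit, and Casp8 is drawn from the fit with no filter. Only Bid is filled in all 4 panels, at 0.85, 0.94, 1.30 and 0.85, and Bcl2 set A is filled in the wild type at 48 h.

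The genotype comparison asked which members differed between the labels at the same time. Of the 10 tested sets 3 were called at 0 h, beside 23.3% of all tested probe sets, 1 at 8 h beside 6.85%, 0 at 16 h beside 11.2% (limma; at an unadjusted p under 0.05, 1 of the 10 and 1876 of all), and 1 at 48 h beside 20.0%. All 5 of these were lower in the mutant-labelled arrays. For the mean over 0, 8, 16 and 48 h 5 of 10 were called, all lower in the mutant-labelled arrays, beside 42.6% of all, of which 1250 were higher and 1720 lower. These counts are again near the background.

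At 0 h the called sets were Bad set A (-0.65 ± 0.15, adjusted p = 0.00474), Casp9 set A (-0.44 ± 0.14, adjusted p = 0.0315) and Bcl2 set A (-0.38 ± 0.13, adjusted p = 0.0363). In each of them the mutant-labelled arrays all lay below the wild-type-labelled ones, and for Bcl2 these were 675.1, 534.2 and 573.6 against 851.3, 750.3 and 720.1. In the other sets of these genes the difference was -0.02 ± 0.16 for Bad set B, -0.01 ± 0.14 and -0.19 ± 0.15 for Casp9 sets B and C, and -0.24 ± 0.19 for Bcl2 set B, and none of the 4 passed. The Bad difference passed in all 7 alternatives and with any array left out. The Casp9 difference was lost with no filter (adjusted p = 0.051), with quantile normalization and without any 1 of 4 of the 6 arrays, and the Bcl2 difference in 5 of 7 alternatives and without any 1 of 5 arrays.

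Bad set A was lower in the mutant-labelled arrays at 8 h as well (-0.57 ± 0.15, adjusted p = 0.0293), a call that was lost without any 1 of 4 of the 6 arrays. At 16 and 48 h its differences were -0.05 ± 0.15 and 0.06 ± 0.15. The change from 0 to 48 h differed between the labels by 0.71, with a 95% interval of 0.27 to 1.15, but the joint test over 8, 16 and 48 h missed the threshold (adjusted p = 0.0623). Mcl1 was lower in the mutant-labelled arrays at 48 h (-0.40 ± 0.11, adjusted p = 0.0159), with no overlap. That call was lost with all 30 arrays in the fit, with only the groups compared, and without wild-type-labelled replicate 1 or 3 or mutant-labelled replicate 2 at 48 h.

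On the mean over the 4 times the called sets were Bad set A (-0.30 ± 0.08, adjusted p = 0.003), Casp9 set A (-0.20 ± 0.07, 0.0288), Mcl1 (-0.16 ± 0.06, 0.0306), Bcl2 set A (-0.17 ± 0.06, 0.0429) and Bcl2l1 (-0.15 ± 0.06, 0.0433). Single arrays of the genotypes overlapped in all 5. Bad set B, Casp9 sets B and C and Bcl2 set B were not called on this mean. Of the 5 called sets, only Bad set A passed whichever 1 of the 24 arrays was left out. The other 4 passed in 17, 16, 10 and 9 of those 24 fits, in the order given. The joint test of a genotype difference in the change from 0 h called 0 of the 10 sets, beside 5.96% of all tested probe sets (limma; 415 of all were called).

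**Figure D3:**
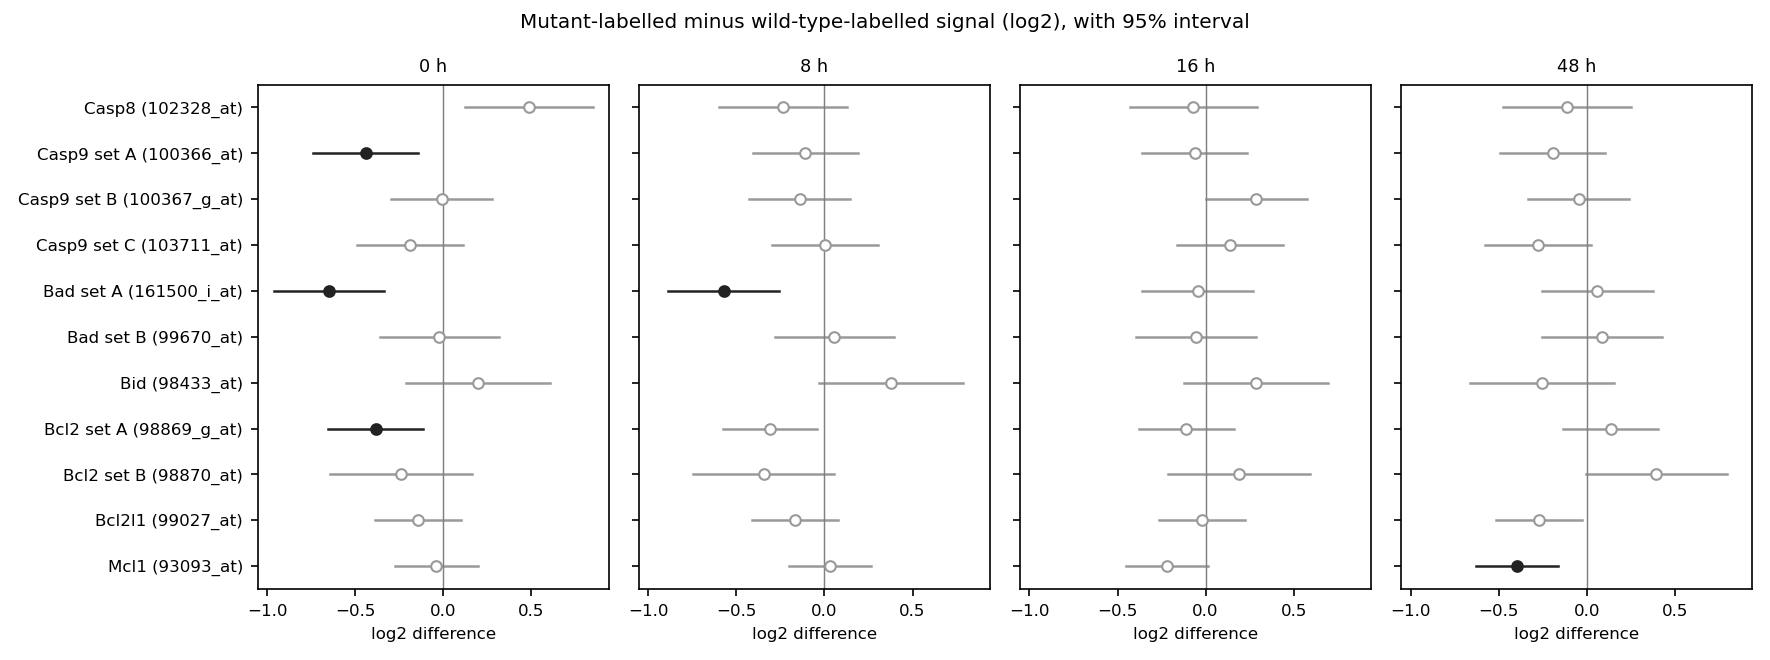
Mutant-labelled minus wild-type-labelled log2 signal (x axis) with 95% intervals for the 10 tested probe sets and Casp8 at 0, 8, 16 and 48 h; filled points passed an adjusted p of 0.05 in the main fit. Filled points all lie below 0: Bad set A at 0 and 8 h (-0.65 and -0.57), Casp9 set A and Bcl2 set A at 0 h (-0.44 and -0.38), and Mcl1 at 48 h (-0.40).

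The mutant-labelled 2 h arrays, with their raised 3′ to 5′ ratios, were compared with 0 h in a fit of all 30 arrays. Of the 10 sets, 4 were called, all lower, beside 17.7% of all tested probe sets. Casp9 set A fell to 356.0, 443.6 and 412.8 and set B to 393.1, 455.7 and 417.3, below each of the 27 other arrays, whose lowest were 535.2 and 477.4. Set C gave 936.6, 690.5 and 868.5 and overlapped its 0 h arrays. Bcl2 set A gave 279.6, 544.4 and 382.5 and set B 360.9, 701.2 and 669.3. Changes were -0.56 and -0.53 for the Casp9 sets and -0.61 and -0.89 for the Bcl2 sets (adjusted p = 0.00951, 0.0104, 0.0157 and 0.00839). With replicate 2 alone for the group, whose Gapdh ratio was nearest the rest, the changes were -0.42 and -0.41 for the Casp9 sets and -0.12 and -0.55 for the Bcl2 sets. None of these was called, in a fit that takes the spread of that lone array from the other groups. Bad set B, not called in the fit of all 30 arrays, gave 253.4, 1201.2 and 634.5, a mean of 696.4 against 1048.6 at 0 h, and overlapped its 0 h arrays. Bid, at 320.2, 281.2 and 249.0, overlapped its 0 h arrays. The part of RNA quality in these values was not tested.

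Of 77 other genes listed for the pathway, 56 had a single-gene probe set and 38 were tested, each by its brightest set. Trp53 had none in the table and was not analysed here. Cflar, an inhibitor of Casp8 activation, was too dim to be tested. Bak1, the other pore former, was tested and not called in any comparison, with 48 h changes of 0.13 ± 0.18 and 0.11 ± 0.18. In the wild-type-labelled arrays 0 of the 38 rose and 1 fell at 2 h, 0 moved at 8 h, 2 rose and 1 fell at 16 h, and 5 rose and 2 fell at 48 h. In the mutant-labelled arrays 2 rose at 8 h, 3 rose at 16 h, and 3 rose and 3 fell at 48 h, with 0 other calls. As shares of the 38 these were 2.63%, 0%, 7.89% and 18.4% at 2, 8, 16 and 48 h in arrays labelled wild type, beside 1.89%, 0.244%, 9.59% and 18.8% of all tested probe sets. For the mutant label they were 5.26%, 7.89% and 15.8% at 8, 16 and 48 h, beside 2.54%, 5.18% and 13.2%. These shares are near the background, so the counts are no result about the pathway. The median changes at 48 h were -0.0028 and 0.11, beside -0.02 and 0.02 over all tested probe sets.

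Among the 3 other tested BH3-only genes, Bcl2l11 (Bim, which binds all anti-apoptotic members) rose at the same 4 points as Bid. Its brightest set read 1921.1, 1946.9 and 1658.8 at 0 h, 2388.5, 2398.1 and 2525.4 at 16 h, and 2863.1, 2388.1 and 2650.4 at 48 h in arrays labelled wild type. The mutant-labelled signals were 1531.3, 1521.3 and 1709.1, then 2353.9, 2434.3 and 2642.6, then 2333.3, 1859.2 and 2348.9. No 16 or 48 h array overlapped the 0 h arrays of its genotype. The rises were 0.41 ± 0.11 and 0.52 ± 0.11 in the wild-type-labelled arrays (adjusted p = 0.0217 and 0.00168) and 0.64 ± 0.11 and 0.45 ± 0.11 in the mutant-labelled ones (adjusted p = 0.00116 and 0.0078). The wild-type 16 h rise was lost without any 1 of 3 arrays, replicate 3 at 0 h and replicates 1 and 3 at 16 h, with an adjusted p of up to 0.101. The dimmer of its tested sets was called at none of these points, with changes of 0.08 ± 0.20, 0.10 ± 0.20, 0.17 ± 0.20 and 0.27 ± 0.20. Bnip3, a mitochondrial BH3-like protein, rose in the mutant-labelled arrays at 16 h (0.44 ± 0.11, adjusted p = 0.0303), a call that was lost when only the groups compared were fitted and in 4 of 6 fits that left out 1 array.

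Other calls were scattered over the roles. In arrays labelled wild type the largest rises at 48 h were those of Birc3, an inhibitor of apoptosis protein (0.90 ± 0.28), Perp, a p53 target (0.72 ± 0.20), and Gadd45a, a stress gene also under p53 (0.57 ± 0.12). The falls were those of Bok, a Bax-like family member (-0.60 ± 0.20), and Cdkn1a, the p53 target p21 (-0.48 ± 0.17). A dimmer tested Cdkn1a set overlapped 0 h at 48 h in these arrays, at 1593.6, 909.8 and 855.0 against 1534.5, 1076.5 and 1414.0. In the mutant-labelled arrays the falls at 48 h were those of Cycs, cytochrome c (-0.86 ± 0.17), Casp6, an executioner caspase (-0.50 ± 0.16), and the death receptor gene Tnfrsf21 (-0.48 ± 0.09). Mdm4 rose there at 48 h (0.32 ± 0.08). Gadd45b, a stress gene, rose there at 8, 16 and 48 h (1.12, 1.01 and 0.69, each ± 0.20), and Tnfrsf1a, the TNF receptor with a death domain, at 8 h (0.53 ± 0.12). A dimmer tested Gadd45b set read 455.4, 526.6 and 529.7 at 0 h in these arrays, and 693.2, 871.8 and 1101.3 at 8 h. It overlapped 0 h at 16 h (592.8, 438.6 and 449.4) and at 48 h (526.3, 686.9 and 688.7). Earlier calls in arrays labelled wild type were a fall of Casp2 at 2 and 16 h (-0.38 and -0.26, each ± 0.08) and a rise of Gadd45b at 16 h (0.64 ± 0.20). At 2 h in the mutant-labelled arrays, in the fit of all 30, 4 of the 38 rose and 1 fell, 13.2% beside 17.7% of all. Gadd45b, Casp4 and Cycs rose (0.71 ± 0.20, 0.63 ± 0.18 and 0.61 ± 0.17) and Gadd45a fell (-0.48 ± 0.14). Among the calls named above, those of Gadd45a, Cycs, Mdm4 and Tnfrsf21 at 48 h passed with any single array left out. So did the mutant-labelled Gadd45b calls of the brightest set at 8 and 16 h. Casp6, Cdkn1a and the Casp2 fall at 2 h each passed in 1 of 6 such fits. The Casp2 fall and the Gadd45b rise at 16 h in arrays labelled wild type passed in 0 of 6. Birc3 passed in 3 of 6, Perp, Bok and Tnfrsf1a in 4 of 6, and the mutant-labelled Gadd45b rise at 48 h in 2 of 6. Of the 2 h calls, Gadd45a passed in 4 of 6 and Gadd45b, Casp4 and Cycs in 3 of 6. With no filter the Birc3, Bok and Cdkn1a calls, the Gadd45b rise at 16 h in arrays labelled wild type and the mutant-labelled one at 48 h were lost.

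Between the genotypes, 1 of the 38 was higher and 11 were lower in the mutant-labelled arrays on the mean over the 4 times, 31.6% of them beside 42.6% of all tested probe sets. Mdm4 and Mdm2, which restrain p53, were lower by 0.44 and 0.48 on the log2 scale (adjusted p = 1.32e-07 and 1.09e-05), and Cycs by 0.43 (adjusted p = 3.21e-04). These 3 passed in all 7 alternatives and all 24 fits that left out 1 array. Gadd45b was the higher one (0.27 ± 0.10, adjusted p = 0.0335), and passed in 16 of those 24 fits. The calls at single times were 1 higher and 7 lower at 0 h, 1 and 2 at 8 h, 1 and 4 at 16 h, and 1 and 9 at 48 h. These were 21.1%, 7.89%, 13.2% and 26.3% of the 38, beside 23.3%, 6.85%, 11.2% and 20.0% of all, and again near the background. At 0 h Gadd45a was higher (0.39 ± 0.12), and Endog, a mitochondrial nuclease (-0.67 ± 0.24), Htra2, a mitochondrial protease (-0.58 ± 0.13), and Mdm4 (-0.57 ± 0.08) were lower. A dimmer tested Htra2 set went the other way at 0 h, so the fall holds for the brightest set only. That dimmer set read 998.0, 971.8 and 974.5 in the mutant-labelled arrays, above 475.2, 537.5 and 595.0 in the wild-type-labelled ones. At 8 h Gadd45b was higher (0.75 ± 0.20), and Casp2 (-0.49 ± 0.08) and Mdm4 (-0.38 ± 0.08) were lower. At 16 h Bnip3 was higher (0.49 ± 0.11), and Mdm2 (-0.62 ± 0.13), Mdm4 (-0.58 ± 0.08) and Cycs (-0.51 ± 0.17) were lower. At 48 h Aifm1, the apoptosis-inducing factor of mitochondria, was higher (0.34 ± 0.10), and Birc3 (-1.20 ± 0.28), Cidea (-0.75 ± 0.26) and Bag3, a co-chaperone (-0.70 ± 0.19), were lower. For a dimmer tested Bag3 set the genotypes overlapped at 48 h. It read 1107.1, 1686.3 and 1056.9 in the mutant-labelled arrays and 1620.5, 1414.4 and 1632.6 in the wild-type-labelled ones. Leaving out 1 array at a time, the Htra2 (brightest set), Birc3, Casp2 and Mdm2 differences and those of Mdm4 at 0 and 16 h passed in 6 of 6 fits. The Mdm4 difference at 8 h and that of Bnip3 passed in 5, Bag3 in 4, Aifm1 in 3, Cidea and Gadd45a in 2, Endog and Gadd45b in 1 and Cycs in 0.

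**Figure D4:**
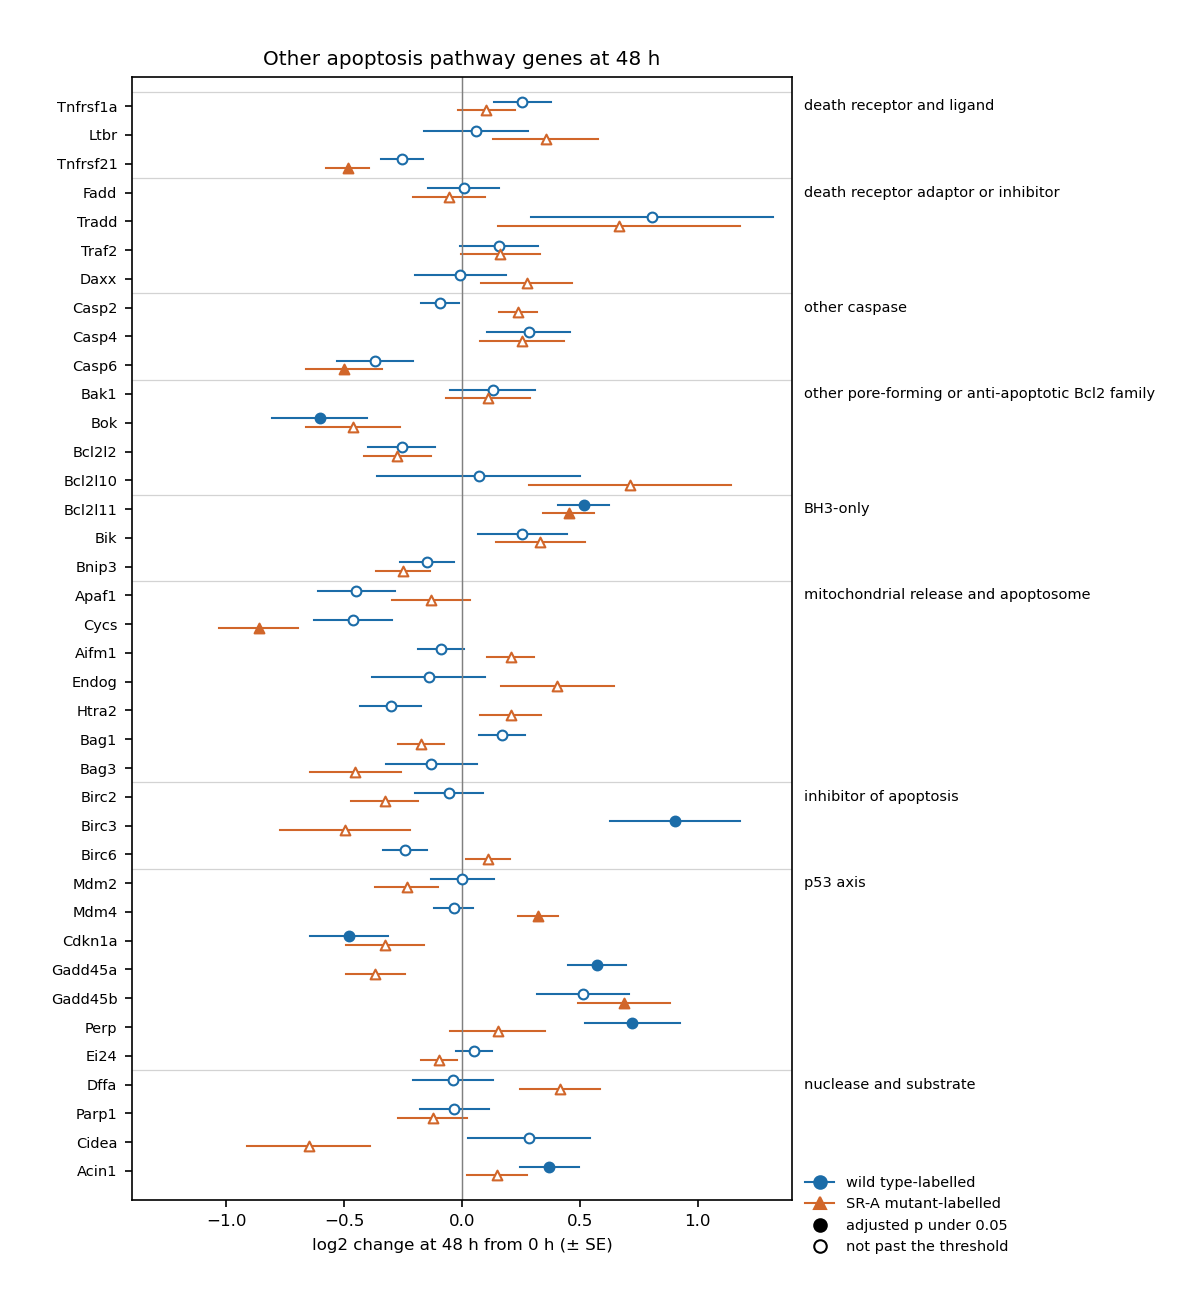
Log2 change at 48 h from 0 h (x axis, bars ± SE) of the 38 other tested pathway genes, grouped by role, in the wild-type-labelled (circles) and mutant-labelled (triangles) arrays; filled symbols passed an adjusted p of 0.05. Bcl2l11 is filled in both, at 0.52 and 0.45, and Cycs lies furthest left, at -0.86 in the mutant-labelled arrays.

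Some other genes followed the members' group means closely over the 9 groups of the main fit, and 1 of those named, Birc6, is on the pathway list. These correlations are descriptions over 9 means that share arrays and scaling. For Bid the 3 most alike were Iars2, a mitochondrial isoleucyl-tRNA synthetase (Pearson r = 0.982), Alox12e, an epidermal lipoxygenase (0.942), and 1810058I24Rik (0.9396). Bad set A was most like Anks3 (0.962), Fgf4 (0.934) and Rhpn1 (0.933), and Casp9 set A most like Dhx40 (0.973), Med12l (0.967) and Ikzf4 (0.955). Bcl2 set A was most like Igh-VS107 (0.942), Son (0.937) and Birc6 (0.933). For Bcl2l1 these were Tbl3 (0.975), Sprr2j-ps (0.967) and Ovgp1 (0.931), and for Mcl1 they were Itgb1 (0.962), Rnf166 (0.9503) and Clic4 (0.924). The group means of these members other than Bid spanned only 0.39 to 0.73 on the log2 scale, against 1.42 for Bid.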

How the data were processed

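The values used were those of the deposited matrix, 1 signal per probe set and array, made by the authors with MAS5 per the submitters' processing notes, of a version not given in the sources used here. Scaling was read from the values, whose 2% trimmed mean was 1500.7 to 1500.9 on the 30 arrays. Of 12488 probe sets 66 were controls, 6968 were tested and 5454 were not. Genes came from the probe table given with the series.

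Under R 4.3.3, limma 3.58.1 fitted log2 signals of 27 arrays in 9 groups. Its two-sided contrasts of group means had moderated variances and Benjamini-Hochberg adjustment at 0.05. Mutant-labelled 2 h arrays entered only their own contrast, with all 30 arrays. The pipeline was tested on simulated data. Other steps used Python 3.11.15, numpy 2.4.6, pandas 2.3.3, scipy 1.17.1 and matplotlib 3.10.9.

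Named were all member probe sets. From the pathway list Cflar, Bak1 and Trp53 were named always (a further gene of this rule is not reported here), with the 3 largest called rises and falls per contrast. The wild-type-labelled 48 h values of Bcl2l11 and those of its dimmer set fell outside that rule and were chosen after their values were seen. The same holds for the dimmer Bag3 and Cdkn1a sets and for the single marker values of Lyz2, Cd68, Ltf and S100a8. The 3 most alike genes were taken for each member called in the 27-array fit. Members and lists were chosen with earlier results of these data known. Alternatives were no filter, a pseudocount of 16, quantile normalization, variance trend with robust moderation, the replicate number as a block, leaving out each array, all 30 arrays, and only the groups compared. Sequences of the members were not used here.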

Additional observations from a re-analysis of the deposited data

Results flagged for a closer look

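Of the tested pathway genes 3 changed differently from 0 h in the 2 genotypes, by the joint limma test of the 8, 16 and 48 h differences, adjusted over all tested probe sets. That is 7.89% of the 38, beside 5.96% of all tested probe sets, so the count is near the background. Gadd45a (adjusted p = 0.013) read 1436.4, 1275.9 and 1410.9 at 0 h and 2516.6, 1909.6 and 1768.0 at 48 h in arrays labelled wild type, against 1981.6, 1741.6 and 1676.3 and then 1601.6, 1259.2 and 1336.8 in the mutant-labelled ones. The 48 h arrays lay above those of 0 h in the former and below them in the latter.

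Birc3 (adjusted p = 0.0478) read 472.7, 305.0 and 456.5 at 0 h and 817.5, 653.2 and 806.3 at 48 h in arrays labelled wild type. The mutant-labelled signals were 358.4, 406.8 and 676.5 at 0 h and 257.9, 354.8 and 384.7 at 48 h. Its call passed in 3 of 7 alternatives and in 5 of the 24 fits that left out 1 array. Casp2 (adjusted p = 0.0265) read 3256.9, 3218.5 and 3180.5 at 0 h and 3036.2, 2921.1 and 3090.6 at 48 h in arrays labelled wild type, and 2517.3, 2208.0 and 2617.9 and then 2962.5, 2828.0 and 2844.9 in the mutant-labelled ones, so that the genotypes were apart at 0 h and overlapped at 48 h. It passed in 7 of 7 alternatives and in 23 of those 24 fits.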

How the results depend on the processing

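No direction of a member's call reversed under the alternatives run. Fitting only the groups compared gave 2 member calls in place of 1 at 16 h and 1 in place of 2 at 48 h in arrays labelled wild type, 0 in place of 1 at 16 and at 48 h in the mutant-labelled ones, 0 in place of 1 for the genotypes at 8 and at 48 h, 3 in place of 5 for their mean, and 0 in place of 4 at 2 h in the mutant-labelled arrays. Fitting all 30 arrays gave 1 at 48 h in arrays labelled wild type, 0 for the genotypes at 8 and at 48 h, and 2 for their mean. With no filter, and with quantile normalization, 1 set was called between the genotypes at 0 h and 3 on their mean, and quantile normalization gave 1 call of the joint test in place of 0. A variance trend with robust moderation gave 1 at 48 h in arrays labelled wild type. With replicate 2 as the only mutant-labelled 2 h array, its spread taken from the other groups, 0 were called, at changes of -0.55 to -0.12 for the 4 sets called with all arrays.

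Leaving out 1 array at a time gave 0 to 1 calls at 16 h and 1 to 3 at 48 h in arrays labelled wild type, and 0 to 0 at 2 and at 8 h. In the mutant-labelled arrays it gave 0 to 6 at 2 h, 0 to 0 at 8 h, 0 to 1 at 16 h and 0 to 1 at 48 h. Between the genotypes it gave 1 to 2 at 0 h, 0 to 1 at 8 h, 0 to 0 at 16 h, 0 to 2 at 48 h, 1 to 5 on the mean and 0 to 1 for the joint test.

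Same-numbered arrays did not deviate together (median r = -0.0106, with 15 of 108 pairs over 0.1), and 9 of 27 arrays correlated best with their own number, so the number pairs nothing. The replicate block left every count of member calls as it was: 0, 0, 1 and 2 at 2, 8, 16 and 48 h in the wild-type-labelled arrays, 4, 0, 1 and 1 in the mutant-labelled ones, 3, 1, 0 and 1 between the genotypes at 0, 8, 16 and 48 h, 5 on their mean and 0 for the joint test.

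Over all tested probe sets, fitting only the groups compared moved the calls from 132 to 59 at 2 h and from 17 to 0 at 8 h in arrays labelled wild type, from 361 to 145 at 16 h, 923 to 204 at 48 h and 1233 to 31 at 2 h in the mutant-labelled ones, and from 477 to 14 at 8 h, 782 to 373 at 16 h and 1392 to 339 at 48 h between the genotypes. Fitting all 30 moved 132 to 40, 477 to 205 and, for the joint test, 415 to 228, no filter moved 17 to 11, and replicate 2 alone moved 1233 to 320. The number of arrays limits the precision, and the dim Bcl2l1 and Bcl2 sets lie nearest to background.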
